A study of Rattus norvegicus with 60 samples.

Results

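The whole hippocampus of aged rats was compared between animals labelled Aged Impaired and animals labelled Aged Intact, both at 24 months. The arrays were chosen by these labels alone, and they numbered 18 (9 impaired and 9 intact) of the 60 in the series. All were F344BN rats, the F1 hybrid of the inbred Fischer and Brown Norway strains that is used in studies of aging, and the labels gave no treatment or sex. The test that sorted rats into impaired and intact was not given in the sources used here. The other arrays were 6 adults of 12 months in the same tissue and the CA1, CA3 and dentate gyrus (DG) samples, with 8 aged arrays in each subregion. The titles gave a group and an array position, and each array was treated as a separate sample. Nothing in the labels said whether whole hippocampus and subregions came from the same rats. The p-values therefore measure the spread between these samples.

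The hippocampus is needed to form new memories of places and events, and aged rats of 1 strain differ widely in how well they learn. Its circuit runs from the granule neurons of the dentate gyrus to the pyramidal neurons of CA3 and then CA1. Immediate early genes, which are transcribed soon after neurons fire, neurotrophins, myelin genes, synaptic genes and immune genes are the groups most often measured in such animals. A whole hippocampus mixes all its cell types, so fewer cells of a type and less RNA per cell cannot be told apart.

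RNA was measured on Illumina rat bead arrays, and values below are log2 intensities after background correction and quantile normalization, so that a difference of 1 is a doubling. Impaired rats lay 4 on the first slide and 5 on the second, and intact rats 5 and 4, and slide was a term in the fit of these 18 arrays. On average 43.33% of probes were detected on impaired arrays and 43.18% on intact arrays, a difference of 0.15 points (exact permutation test, two-sided, p = 0.825, n = 9 each). Markers of the 3 subregions were present. Wfs1, a CA1 gene, was detected on all 9 impaired and all 9 intact arrays, Nectin3, a CA3 gene, on 8 and 8, and the dentate genes C1ql2 and Prox1 on 9 and 9 and on 5 and 6. Tcf7l2, a thalamic gene, was detected on 1 impaired and 1 intact array. Of the 21 genes on the array from a list for neighbouring thalamus, striatum and cortex, 19 passed the detection filter. Of these, 13 were higher and 6 lower in impaired rats, with a median difference of 0.05. Drd1 had the smallest p of this list, with a difference of 0.26 ± 0.09 (SE, limma, unadjusted p 0.0102, adjusted p 0.722). The part of neighbouring tissue in these values was not tested.

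Intact replicates 2 and 7, on different slides, stood apart from the other 16 arrays. Their mean correlation with the other arrays was 0.964 and 0.954, while the remaining 16 arrays lay between 0.978 and 0.988. Their synaptic vesicle genes averaged 10.28 and 10.47, above every impaired array (9.78 to 9.92) and every other intact array (9.82 to 9.92). Their ribosomal protein genes averaged 11.65 and 11.63, below every impaired array (11.81 to 12.11) and every other intact array (11.84 to 12.05). Genes of the meninges, the membranes around the brain, averaged 7.65 and 7.53 on them, against 7.98 to 8.33 on impaired and 8.08 to 8.46 on other intact arrays. Differences below are from all 18 arrays, and many are also given without these 2, a choice made after seeing the arrays. The part of dissection or RNA quality in this was not tested.

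**Figure D1:**
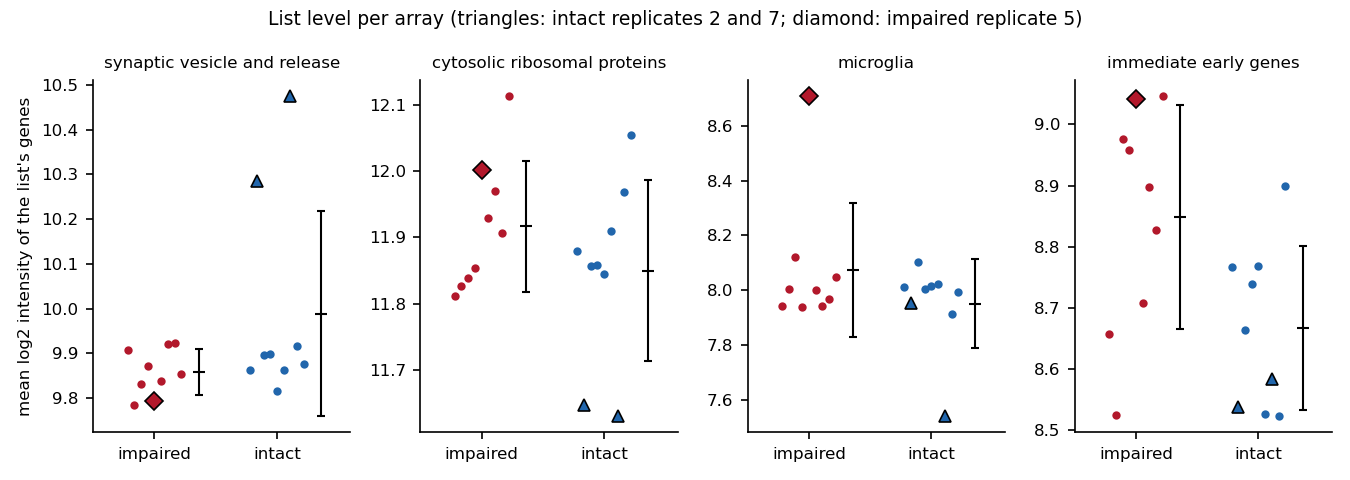
Mean log2 intensity of 4 gene lists on each impaired (left) and intact (right) array, with bars for the mean and SD (n = 9 each). Intact replicates 2 and 7 (triangles) lie apart in synaptic vesicle and ribosomal genes, and impaired replicate 5 (diamond) lies at 8.71 in microglial genes.

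No gene passed the test between impaired and intact rats. Of 9715 probes tested, 0 (0%) had an adjusted p under 0.05 with limma and Benjamini-Hochberg adjustment, and the smallest adjusted p was 0.722. At an unadjusted p under 0.05 there were 349 (3.59%), with 175 higher in impaired rats (1.8%) and 174 lower (1.79%). No probe had 9 impaired values that were all above or all below the 9 intact values (0%). The interval of each difference shows its precision, for the intensities of tested probes only and without adjustment for their number. The median 95% interval reached 0.195 to each side, and for 94.8% of probes the whole interval lay within a 1.5-fold difference in either direction. For 99.8% it lay within 2-fold.

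Differences themselves were small, with a median of 0.01 over all probes and quartiles of -0.07 and 0.09. With 18 arrays 14 probes were beyond 0.5 in either direction, and without the 2 intact arrays 1 probe was. That probe measured Plac8, named here after its value was seen, and impaired replicate 5 had 10.72 against 5.66 to 6.49 in the other 8 impaired arrays and 5.31 to 6.57 in the intact arrays. Its difference was 0.76 ± 0.48 (SE) and was 0.295 without impaired replicate 5. Without the 2 intact arrays, 178 probes (1.83%) had an unadjusted p under 0.05, 95 of them among the 349 above, and 63.9% of all probes kept their direction.

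The smallest unadjusted p over all probes, 7.97e-05, belonged to RGD1304885, a predicted gene that the naming rule leaves out and that is named here after its value was seen. Its lowest, median and highest values were 6.41, 6.46 and 6.62 in impaired rats and 6.54, 6.76 and 6.98 in intact rats. The groups overlapped, with 7 impaired arrays below every intact one. The difference was -0.28 ± 0.06 (SE), and -0.26 without the 2 intact arrays.

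**Figure D2:**
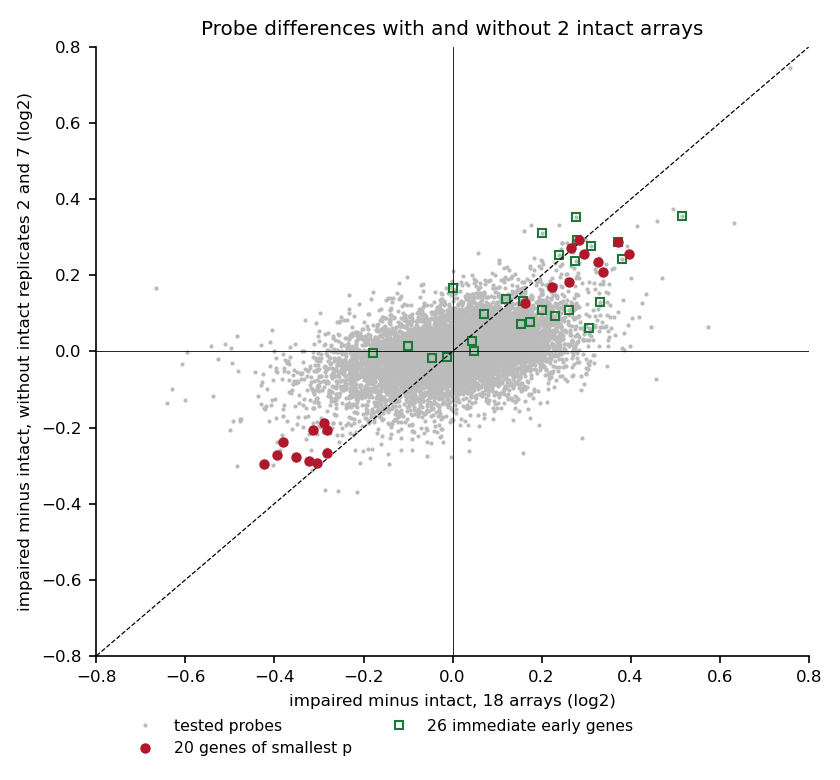
Difference impaired minus intact (log2) of each tested probe with 18 arrays (x axis) and without intact replicates 2 and 7 (y axis), and a dashed line of equality. All 20 genes of smallest p (red) kept their direction, while the number of probes beyond 0.5 went to 1, against 14 with 18 arrays.

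The named genes of smallest p, 10 higher and 10 lower in impaired rats, covered several kinds of protein, and all had an adjusted p of 0.722. Of the 20, 19 had a mean level below the median of tested probes (8.14), where signals lie closer to background. Each of the 20 kept its direction and an unadjusted p under 0.05 without the 2 intact arrays, although 18 had a smaller difference, and each had 1 direction within both slides. They were picked for small p in this comparison, so these counts only describe them. In the subregions, 30 of the 60 differences of these genes ran in the same direction as in whole hippocampus.

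Among secreted factors and the proteins that process or bind them, Pcsk4 encodes a proprotein convertase. It had 5.77, 6.09 and 6.20 (lowest, median and highest) in impaired rats and 5.36, 5.76 and 5.91 in intact rats. All 9 impaired arrays lay above the intact mean and 6 lay above every intact array. The difference was 0.27 ± 0.07 (SE), with an unadjusted p of 0.00154, and was 0.27 without the 2 intact arrays. Follistatin, Fst, which binds activins, had 5.57, 5.91 and 6.23 in impaired rats and 5.34, 5.58 and 5.85 in intact rats, a difference of 0.28 ± 0.09 (0.29 without the 2 intact arrays). Of the impaired arrays, 5 exceeded every intact array. Fst was detected on 8 impaired and 3 intact arrays, so it passed the detection filter through the impaired group and its intact values lie mostly at background.

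Several of the genes encode receptors and other membrane proteins. Lynx1, a membrane-anchored modulator of nicotinic acetylcholine receptors, had 5.96, 6.28 and 6.64 in impaired rats and 6.12, 6.56 and 7.16 in intact rats. All 9 impaired arrays lay below the intact mean, and the difference of -0.42 ± 0.12 was -0.30 without the 2 intact arrays. The growth factor receptor Fgfr2 had 6.76, 6.94 and 7.17 in impaired rats and 6.78, 7.33 and 7.49 in intact rats (difference -0.28 ± 0.09, and -0.21 without the 2 arrays). Il11ra1, the receptor of interleukin 11, differed by -0.31 ± 0.09, Col23a1, a transmembrane collagen, by -0.35 ± 0.10, and Slc44a2, a choline transporter-like protein, by -0.31 ± 0.09. Without the 2 arrays these differences were -0.29, -0.28 and -0.21. In CA1, CA3 and DG Lynx1 differed by 0.43, 0.21 and -0.20, and Fgfr2 by 0.43, -0.04 and -0.18.

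Ptgds, which makes prostaglandin D2 and is abundant in the meninges, choroid plexus and oligodendrocytes, was the bright exception. It had 12.54, 12.71 and 13 in impaired rats, 12.74, 13.02 and 13.26 in intact rats and 12.47 to 12.63 in the 6 adults. The 2 aged groups overlapped, but 5 impaired arrays lay below every intact array and 5 intact arrays above every impaired one. The difference was -0.28 ± 0.08 (SE, unadjusted p 0.00295) with 18 arrays and -0.27 without the 2, and it was below 0 in CA1 (-0.30), CA3 (-0.23) and DG (-0.08). The meningeal list, which holds Ptgds, depended on the 2 intact arrays. Its median over 11 tested genes was 0.12 with 18 arrays and -0.11 without the 2, and its part in the Ptgds difference was not tested.

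The enzymes and regulators completed the set. Dhtkd1, a mitochondrial dehydrogenase of lysine breakdown, had 6.05, 6.402 and 6.69 in impaired rats and 6.502, 6.73 and 7.28 in intact rats, and 7 impaired arrays lay below every intact one (difference -0.39 ± 0.11). Dmtf1, a Myb-like transcription factor, differed by -0.32 ± 0.09, and a second tested probe of the gene by -0.09. The ubiquitin ligase Wwp2 differed by -0.29 ± 0.09, and its second probe by 0.07, and the probes of Wwp2 thus disagreed in sign. The first was detected on 2 impaired and 8 intact arrays, so it passed the filter through the intact group. Zfp775, a zinc finger protein, differed by -0.38 ± 0.12. On the other side, Sec16b, a protein of export sites in the endoplasmic reticulum, differed by 0.40 ± 0.12, and Ebpl, a relative of a sterol isomerase, by 0.26 ± 0.08. The zinc finger factors Zfhx4 and Zfp423 differed by 0.33 ± 0.11 and 0.29 ± 0.10, the propionyl-CoA carboxylase subunit Pccb by 0.22 ± 0.08, and Klhl20, an adaptor of a ubiquitin ligase, by 0.16 ± 0.06. Pccb was detected on 7 impaired and 2 intact arrays, so it passed the filter through the impaired group. Without the 2 intact arrays the differences were -0.27 for Dhtkd1, -0.29 for Dmtf1, -0.19 for the first probe of Wwp2 and -0.24 for Zfp775. On the other side they were 0.26 for Sec16b, 0.18 for Ebpl, 0.23 for Zfhx4, 0.26 for Zfp423, 0.17 for Pccb and 0.13 for Klhl20.

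With all 18 arrays immediate early genes had the highest median of the 35 gene lists examined. MHC class II genes were higher without the 2 intact arrays (0.18, against 0.12 for immediate early genes), dentate granule genes within the first slide (0.13, against 0.06) and with array weights (0.14, against 0.10), and microglial genes within the second slide (0.30, against 0.27). Immediate early genes encode transcription factors, phosphatases and synaptic proteins. Some of them carry a cAMP response element (CRE), bound by CREB, or a CArG box, bound by serum response factor, near their start. Of the 33 listed, 26 were tested and 22 of these had a difference above 0, against 52.8% of all probes. The median was 0.20, against 0.01 over all probes. Of the 26, 6 had an unadjusted p under 0.05, all with higher values in impaired rats, against 1.8% of all probes, and none passed adjustment. Without the 2 intact arrays 23 of 26 were above 0, the median was 0.12 and 2 had an unadjusted p under 0.05. Within the first slide the median was 0.06 and within the second 0.27.

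The upstream sequences of Dusp1, Btg2 and Egr2 are shown because each holds a CRE or a CArG box. They are the 210 bases before the annotated start, 5′ to 3′ on the gene's strand, from RefSeq on build GRCr8, with the CRE (TGACGTCA, which reads the same on both strands) or the CArG box (searched on both strands) in capitals. Dusp1 is at chr10:17184643-17184852 (plus strand), Btg2 at chr13:48087691-48087900 (minus strand) and Egr2 at chr20:21054442-21054651 (minus strand).
Dusp1: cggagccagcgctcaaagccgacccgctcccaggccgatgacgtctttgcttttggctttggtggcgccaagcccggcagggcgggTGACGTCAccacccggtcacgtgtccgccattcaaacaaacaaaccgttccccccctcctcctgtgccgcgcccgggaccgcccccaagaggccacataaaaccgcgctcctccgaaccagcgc
Btg2: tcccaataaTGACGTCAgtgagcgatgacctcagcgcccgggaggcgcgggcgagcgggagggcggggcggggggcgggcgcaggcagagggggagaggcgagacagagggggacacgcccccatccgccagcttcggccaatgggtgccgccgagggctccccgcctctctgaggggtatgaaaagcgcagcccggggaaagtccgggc
Egr2: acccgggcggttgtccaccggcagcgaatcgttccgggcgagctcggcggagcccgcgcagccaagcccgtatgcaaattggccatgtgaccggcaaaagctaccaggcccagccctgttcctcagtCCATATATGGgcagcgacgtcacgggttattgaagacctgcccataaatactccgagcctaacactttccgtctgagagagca
Over the 250 bases before the start, 4 of the 21 genes of the list with a promoter in the table held the CRE (Dusp1, Btg2, Jund and Ier2), against 1.59% of 33469 promoters, and 3 held the CArG box (Egr1, Egr2 and Klf6), against 1.5%. A match is a description of the letters only. The motifs and the genes shown were chosen after the differences were seen.

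Dusp1, a phosphatase that switches off MAP kinases, had the largest difference of the group. Its lowest, median and highest values were 10.15, 10.99 and 11.34 in impaired rats, 9.71, 10.30 and 11.07 in intact rats and 10.39, 10.64 and 11.29 in adults. The ranges overlapped, with 7 of 9 impaired arrays above the intact mean and 4 above every intact array. The difference was 0.52 ± 0.21 (SE, 1.43-fold, unadjusted p 0.0222), and 0.36 without the 2 intact arrays, which had 9.71 and 9.83.

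Transcription factors of the EGR family followed. Egr4 had 6.65, 7.16 and 7.55 in impaired rats and 6.30, 6.77 and 7.14 in intact rats, with 5 impaired arrays above every intact one. Its difference was 0.37 ± 0.13 (SE, unadjusted p 0.00899) and 0.29 without the 2 intact arrays. Egr1, much used as a marker of neuronal activity, had 9.87, 10.35 and 10.65 in impaired rats and 9.80, 10.07 and 10.35 in intact rats. Its difference of 0.24 ± 0.09 was as large, 0.25, without the 2 arrays. Egr2 differed by 0.31 ± 0.16, with an interval from -0.02 to 0.64, and by 0.28 without the 2 arrays.

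The AP-1 factors varied more. Junb had 9.31, 9.88 and 10.32 in impaired rats and 8.93, 9.58 and 9.93 in intact rats, a difference of 0.38 ± 0.15 that was 0.24 without the 2 arrays. Jun had 8.54, 8.64 and 8.91 in impaired rats and 7.71, 8.58 and 8.63 in intact rats. Its difference of 0.23 ± 0.10 was 0.09 without intact replicates 2 and 7, the second of which held the value of 7.71. Fos, the best known of the group, had 6.52, 7.51 and 8.34 in impaired rats and 6.47, 7.14 and 7.77 in intact rats. Both groups of Fos values were broad, and its difference of 0.28 ± 0.20 had an interval from -0.14 to 0.70. The difference of Fos was 0.35 without the 2 arrays, between 0.14 and 0.40 when each array was left out, 0.01 within the first slide and 0.54 within the second.

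Among effectors, the antiproliferative factor Btg2 had 7.78, 8.18 and 8.76 in impaired rats and 7.73, 7.98 and 8.36 in intact rats, a difference of 0.28 ± 0.13 that was 0.29 without the 2 arrays. Arc, which removes glutamate receptors from synapses, differed by 0.20 ± 0.16 with 18 arrays and 0.31 without the 2. Ptgs2, the inducible cyclooxygenase, differed by 0.31 with 18 arrays and 0.06 without them. The 4 members below 0 were Nptx2 (-0.18), Nr4a2 (-0.10), Gadd45b (-0.05) and Nr4a3 (-0.01), which without the 2 arrays had -0.01, 0.01, -0.02 and -0.01.

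The subregions were set beside these values without a test of the list between regions. In CA1 9 of the 26 immediate early genes had a difference above 0, in CA3 10 and in DG 8, with medians of -0.09, -0.02 and -0.11, while 48.27%, 50.04% and 51.93% of all probes were above 0 there. Egr1 differed by -0.27 in CA1, by -0.24 in CA3 and by 0.00 in DG, and the difference of whole hippocampus minus the mean of the subregions was 0.41 ± 0.12 (SE, unadjusted p 0.00109, adjusted p 0.944). The 4 impaired and 4 intact arrays of each subregion shared 1 slide, so the level of a region cannot be told apart from that of its slide. A level common to the slide cancels in these differences. Position on the slide does not, since in CA1, CA3 and DG alike all impaired arrays lay at positions before all intact arrays. Impaired and intact thus cannot be told apart from position in the subregion differences, which also enter the comparison with whole hippocampus. The part of position in them was not tested.

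**Figure D3:**
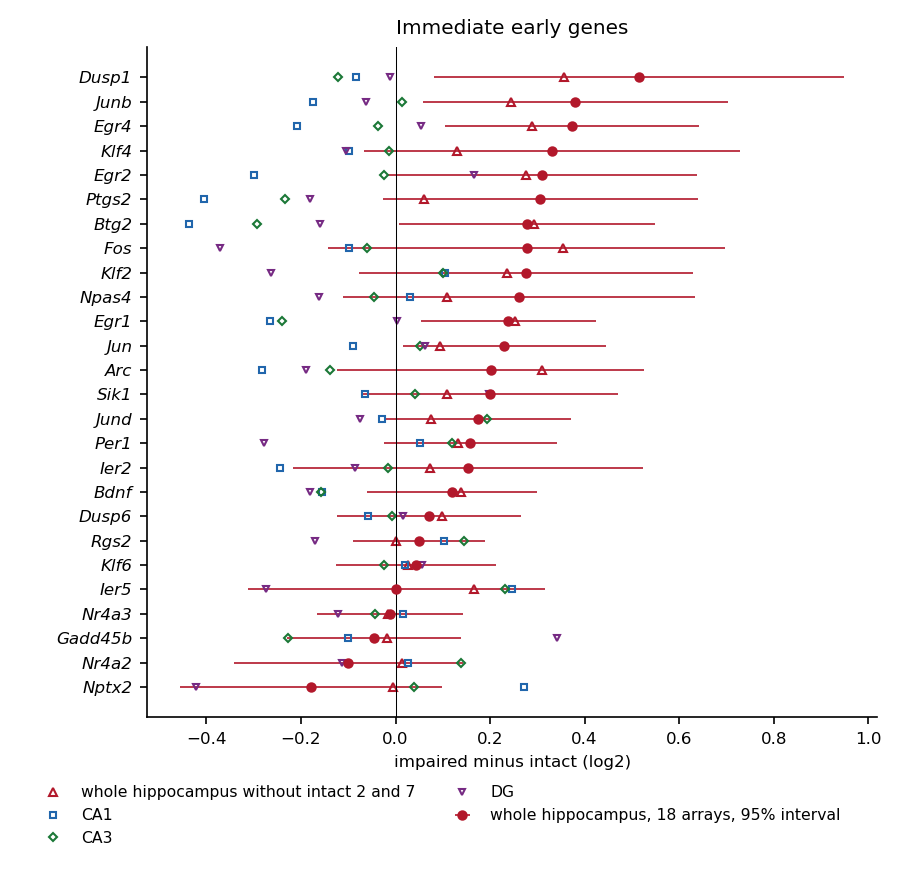
Difference impaired minus intact (log2) of the 26 tested immediate early genes in whole hippocampus with its 95% interval (filled circles), without intact replicates 2 and 7 (triangles), and in CA1, CA3 and DG (open symbols). In whole hippocampus 22 of 26 circles lie above 0, and 6 intervals exclude 0 before adjustment.

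Glucocorticoid receptors and target genes, a list that also holds Dusp1 and Per1, had 15 of 17 tested members above 0. The median was 0.09, and 0.05 without the 2 intact arrays, where 13 of 17 were above 0. Dusp1 was the member with an unadjusted p under 0.05. The count above 0 was 12, 13 and 12 of 17 in CA1, CA3 and DG.

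Neurotrophins and growth factors had no common direction, with 8 of 15 above 0 and a median of 0.02. Ntf3, the ligand of the receptor Ntrk3, had 7.84, 7.97 and 8.38 in impaired rats and 7.19, 7.77 and 8.17 in intact rats. All 9 impaired arrays lay above the intact mean and 2 lay above every intact array. Its difference of 0.28 ± 0.10 (SE, unadjusted p 0.0108) was 0.15 without the 2 intact arrays that stood apart, which held the lowest values, 7.44 and 7.19. Bdnf, the neurotrophin most tied to synaptic plasticity, had 8.76, 9.24 and 9.45 in impaired rats and 8.75, 9.11 and 9.47 in intact rats, a difference of 0.12 ± 0.09 that was 0.14 without the 2 arrays. The receptors Ntrk2 and Ntrk3 differed by 0.02 and -0.11, and by 0.02 and 0.02 without them. Vegfa and Igf1r differed by -0.25 and -0.27 with 18 arrays and by -0.03 and 0.01 without the 2.

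Genes of oligodendrocytes and myelin, the insulation of axons, had 15 of 24 tested members below 0 and a median of -0.03. Of the 24, 4 had an unadjusted p under 0.05, among them Mbp, Cldn11 and Qdpr, all lower in impaired rats, against 1.79% of all probes lower. Mbp, myelin basic protein, had 11.30, 11.52 and 11.82 in impaired rats, 11.56, 11.68 and 12.66 in intact rats and 11.29, 11.43 and 11.52 in adults. Of the impaired arrays, 7 lay below every intact one. Intact replicates 2 and 7 held 12.38 and 12.66, and the other intact arrays reached at most 11.91. The difference of -0.37 ± 0.13 (SE) was -0.18 ± 0.07 without them. Cldn11, the tight junction protein of myelin, differed by -0.31 and Qdpr, a pteridine reductase rich in these cells, by -0.23, and without the 2 arrays by -0.15 and -0.12.

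Mog, a glycoprotein on the surface of myelin, did not share the sign of Mbp with all 18 arrays. It had 11.26, 11.44 and 11.85 in impaired rats and 11.16, 11.57 and 11.71 in intact rats, with intact replicate 7 lowest. The difference of Mog was 0.02 ± 0.08 with 18 arrays and -0.04 without the 2. Without the 2 arrays 21 of the 24 members were below 0 with a median of -0.07. Within the first slide 14 of 24 were above 0 and within the second 5. In CA1, CA3 and DG 10, 3 and 13 of 24 were above 0.

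**Figure D4:**
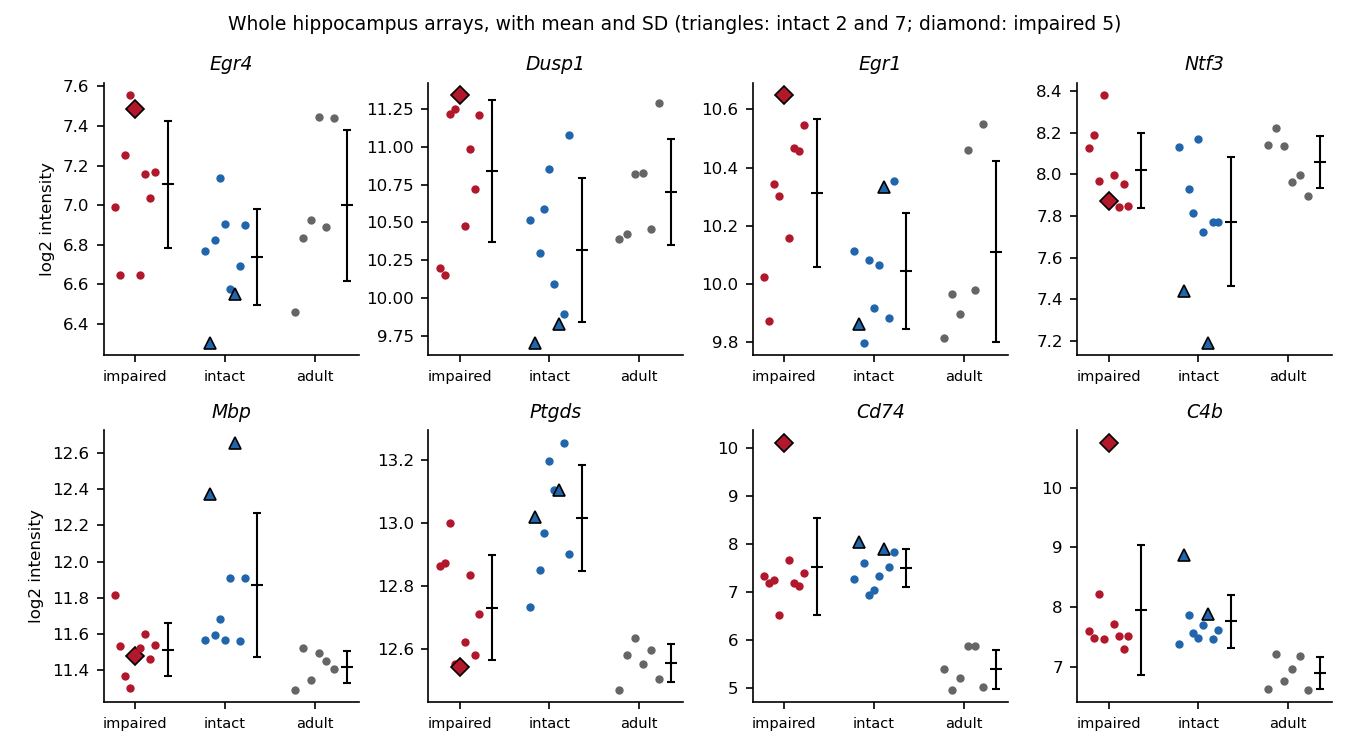
Log2 intensity of 8 genes on each impaired, intact and adult array of whole hippocampus, with bars for the mean and SD (n = 9, 9 and 6). Impaired and intact values overlap for each gene, the triangles mark intact replicates 2 and 7, and the diamond marks impaired replicate 5, highest in Cd74 (10.12) and C4b (10.75).

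Immune genes were set apart in 1 impaired rat rather than in the group. MHC class II proteins present antigen, and complement tags cells and synapses for removal by microglia. Cd74, the class II invariant chain, had 10.12 on impaired replicate 5, against 6.53 to 7.67 on the other 8 impaired arrays, 6.94 to 8.06 on the intact arrays and 4.96 to 5.88 in adults. The class II genes RT1-Ba and RT1-Da had 11.78 and 13.09 on that array, against 8.50 to 9.33 and 9.97 to 10.74 on the other impaired arrays and 8.66 to 9.44 and 9.89 to 10.82 on the intact arrays. Such genes have near-identical relatives in the rat, so a probe may read more than 1 of them. The complement genes C4b, C2 and C1qb had 10.75, 10.75 and 11.39 there, against at most 8.22, 8.75 and 10.105 on other impaired arrays and 8.86, 8.62 and 10.03 on intact arrays.

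With this array the difference of Cd74 was -0.03 ± 0.31 (SE), and without it -0.31. C4b differed by 0.18 ± 0.36 and by -0.15 without it. The microglial list had 11 of 12 tested members above 0 and a median of 0.14, against 8 of 12 and 0.05 without impaired replicate 5. Complement had 10 of 12 and 0.15, against 7 of 12 and 0.05. Leaving out intact replicates 2 and 7 instead also lowered both, to 8 of 12 and 0.08 for microglia and 8 of 12 and 0.05 for complement. The 5 tested class II genes had a median of 0.00, which was -0.21 without impaired replicate 5 and 0.18 without the 2 intact arrays. Within the first slide, which does not hold this array, the microglial median was -0.03, and within the second 0.30. The second slide also held intact replicate 7, whose microglial mean of 7.54 was the lowest of all 18 arrays. No immune gene of these lists had an unadjusted p under 0.05. Trem2, a microglial receptor, had 9.57, 9.76 and 9.97 in impaired rats and 9.05, 9.68 and 9.83 in intact rats (difference 0.17 ± 0.08, and 0.08 without the 2 intact arrays). Gfap, the astrocyte filament protein, had 13.30, 13.54 and 13.88 in impaired rats and 13.41, 13.67 and 13.92 in intact rats, a difference of -0.08 ± 0.08 that was -0.01 without the 2 intact arrays.

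The values of synaptic genes depended on the 2 intact arrays. Of 24 tested genes of synaptic vesicles and transmitter release 21 were below 0 with a median of -0.12, and without those arrays 14 were below 0 with a median of -0.01. Syngr1, a vesicle protein, had 6.71, 6.89 and 7.28 in impaired rats and 6.71, 7.13 and 8.05 in intact rats, with 7.96 and 8.05 on the 2 arrays. Its difference was -0.35 ± 0.15 with 18 arrays and -0.14 without the 2. Snap25, a fusion protein of vesicles, differed by -0.13 ± 0.07, and by -0.06 without them. The NMDA receptor subunit Grin2b differed by -0.23 and by 0.00. Postsynaptic and glutamate receptor genes had a median of -0.02, and 0.02 without the 2 arrays. Ribosomal protein genes turned the other way, with 47 of 65 above 0 and a median of 0.04, against 22 of 65 and -0.01.

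Among interneuron genes, Gad1, which makes GABA, differed by 0.02 ± 0.05, Npy by 0.03 ± 0.07 and Sst by -0.10 ± 0.08, and without the 2 intact arrays by 0.02, -0.01 and -0.06. Calb1, a calcium buffer of granule and CA1 neurons, had 11.46, 11.68 and 11.83 in impaired rats and 10.97, 11.51 and 11.77 in intact rats, a difference of 0.18 ± 0.09 that was 0.07 without the 2 arrays. CA1 genes had 6 of 8 below 0 with a median of -0.10, CA3 genes 6 of 12 above 0 with a median of -0.01, and dentate granule genes 5 of 6 above 0 with a median of 0.12. The medians were -0.06, -0.04 and 0.08 without the 2 arrays. Single members reached further, with Mpped1 of the CA1 list at -0.42 (-0.10 without the 2 arrays), Wfs1 at -0.28 (-0.01) and Lynx1 of the CA3 list at -0.42 (-0.30). The dentate list's member with an unadjusted p under 0.05 was Jun, described above. Ttr, the choroid plexus transporter of thyroid hormone, ranged from 5.18 to 6.68 in impaired rats, from 5.31 to 7.83 in intact rats and from 5.59 to 12.43 in adults. The adult range was thus the widest. The difference of Ttr was -0.29 ± 0.23, and -0.37 without the 2 arrays.

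Over all 35 lists, 0 had a member that passed adjustment. Their medians lay between -0.12 and 0.20, and 28 of 35 lay within 0.1 of 0. Without the 2 intact arrays the medians lay between -0.11 and 0.18, 31 lay within 0.1 of 0 and 15 had the other sign. Immediate early genes kept a median of 0.155 or more when any single array was left out, and no other list kept one beyond 0.1 in either direction.

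**Figure D5:**
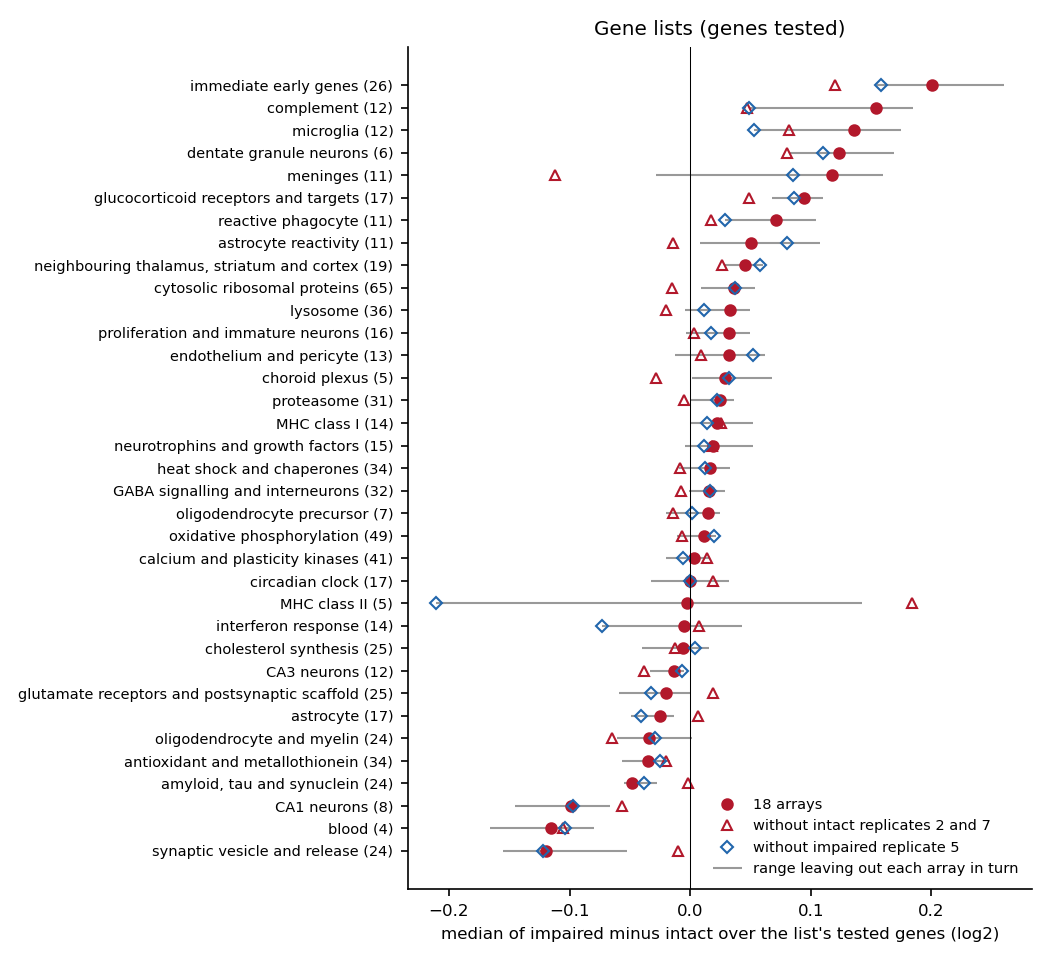
Median difference impaired minus intact (log2) over the tested genes of each list with 18 arrays (circles), without intact replicates 2 and 7 (triangles) and without impaired replicate 5 (diamonds), with a line for the range when each array is left out. Immediate early genes head the lists at 0.20 and synaptic vesicle genes end them at -0.12.

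The comparison with the subregions asked whether impaired and intact rats differed otherwise in whole hippocampus than in its parts. Of 10492 probes tested in 1 fit of 42 aged arrays, 0 (0%) had an adjusted p under 0.05 for the difference between whole hippocampus and the mean of CA1, CA3 and DG, with a smallest adjusted p of 0.944. At an unadjusted p under 0.05 there were 390 (3.72%). In the same fit 0 probes passed adjustment in CA1, CA3 or DG, and 570 (5.43%), 174 (1.66%) and 1119 (10.7%) had an unadjusted p under 0.05. The named genes of smallest p were Or2b11, Filip1, Zfhx4, Rif1 and Egr1. Filip1, a regulator of filamin, had 7.38, 7.74 and 7.85 in impaired rats and 6.77, 7.51 and 7.75 in intact rats. It differed by 0.28 in whole hippocampus and by -0.39, -0.38 and 0.04 in CA1, CA3 and DG, an interaction of 0.52 ± 0.13 (adjusted p 0.944). Intact replicates 2 and 7 held 7.08 and 6.77, and without them its whole hippocampus difference was 0.13. The dim probes of Or2b11 and Rif1 were detected on 1 and 3 of 9 impaired arrays and on 0 and 0 of 9 intact arrays, and were not tested in whole hippocampus alone.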

How the data were processed

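RNA was extracted with Trizol and RNeasy columns with DNase I and made into biotinylated cRNA, per the labels' protocols. The deposited non-normalized table held, per the file headers, the bead signal of every probe on every array as a linear intensity, each with its detection p-value. The deposited processed intensity table, of unknown settings, served as an alternative. There were 22523 probes, and after symbols were updated from RefSeq genes, 17084 of them carried a symbol that was neither LOC nor RGD, and 0 value columns were left unused.

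Normalization of all 60 arrays together used limma 3.58.1 in R 4.3.3 (neqc: background from negative controls inferred from detection p-values, offset 16, quantile normalization, log2). Tested probes had a detection p-value below 0.01 on 9 or more of the 18 arrays. Impaired minus intact was fitted on the 18 arrays with slide as a term (lmFit and eBayes, two-sided, Benjamini-Hochberg over all tested probes, threshold 0.05). The fit of 42 aged arrays also took probes detected on 4 or more arrays of a subregion. For a gene with several probes the brightest was used. Python 3.11.15 with pandas 2.3.3, numpy 2.4.6 and scipy 1.17.1 made the tables. The number of arrays limits the precision. The fit was tested on simulated data.

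Genes named were the 10 higher and 10 lower of smallest p, the member of smallest p of each list, 20 preset genes and the 5 of smallest p in the subregion comparison. Immediate early, neurotrophin, myelin and immune genes beyond these were added after values were seen, as were the lists given per array. Members and lists were chosen with earlier results of these data known.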

Additional observations from a re-analysis of the deposited data

Results flagged for a closer look

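A single array lay far from the other 8 of its group (Dixon's test at 95%) in 36 of 340 groups of values examined. Chance gives about 1 in 20 for independent groups chosen beforehand. These groups held genes added after values were seen, Plac8 among them, and lists that share such genes. That rate is therefore no reference for the count. Impaired replicate 5 held 16 of these, each above the others. They were the microglial list (mean 8.71) and complement list (9.255), the class II genes Cd74 (10.12), RT1-Ba (11.78), RT1-Da (13.09) and RT1-Db1 (10.28), and the class I chain B2m (13.98). They were also the complement genes C4b (10.75), C2 (10.75), C1qa (10.91), C1qb (11.39) and C1qc (10.26), the microglial genes Aif1 (11.85), Fcgr3a (9.637) and Ly86 (7.435), and Plac8 (10.72).

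Impaired replicate 9 stood apart in its mean correlation with the other arrays (0.9776), in Ppp3cb (10.64), Opalin (9.007) and Sall1 (6.237), which were low, and in Npy (10.92), Klf6 (9.236) and Igfbp6 (8.506), which were high. Impaired replicate 3 was high in Emp1 (7.171) and low in Filip1 (7.383) and Ptgs2 (10.37).

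Intact replicate 7 was low in the microglial list (7.539), Trem2 (9.052), Tyrobp (5.383), Jun (7.709) and Igfbpl1 (5.354). Intact replicate 2 was high in C4b (8.863) and Fcgr3a (8.322) and low in Gabra2 (5.937). Intact replicate 4 was low in Nr4a3 (9.1) and intact replicate 6 in Dusp6 (9.908).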

How the results depend on the processing

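The count of probes past adjustment in whole hippocampus was 0 under each of 35 alternatives, among them other background corrections, the deposited processed values, other filters, no slide term, each slide alone, array weights, adults in the fit and each array left out. At an unadjusted p under 0.05 the count ran from 158 (without intact replicate 7) to 912 (no detection filter), and with each array left out from 158 to 663 (without intact replicate 6). The smallest adjusted p under any of them was 0.104, with array weights. Against the subregions the count past adjustment was 0 under each of 49 alternatives, with 234 to 1095 at an unadjusted p under 0.05. With the replicate number as a block in place of slide, 0 probes passed and 436 had an unadjusted p under 0.05, and with block and slide 0 and 442. The replicate numbers follow the order of slide and position within each group, so they cannot show whether samples were paired. The correlation of deviations of same-numbered arrays ran from -0.12 to 0.51, and from -0.36 to 0.28 with slide removed. In each case 1 of 9 pairs correlated best with its own number. Of 5296 values of named genes under the alternatives, 263 had the other sign, and none passed adjustment. None of the 263 belonged to the 20 genes of smallest p (693 values). Those 20 were picked for small p in these same arrays, so their count only describes them. Of 1260 list medians, 27 moved by more than the median standard error, most of them of class II, complement and meningeal genes. Alternatives that leave out the 2 or 3 arrays of lowest correlation, and list medians with each array left out, were chosen after seeing the data.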

Other observations

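Over all tested probes, 17 had a value on impaired replicate 5 more than 1 log2 unit above the highest of the other 17 arrays. Beside Plac8 and the class II, complement and Fc receptor genes already given, they were led by Ifi27l2b, an interferon-induced gene (9.76, against 6.02 to 6.94). Gbp2, an interferon-induced GTPase, had 7.63, against 5.51 to 6.19, and Ncf1, a subunit of the phagocyte oxidase, had 8.77, against 6.55 to 7.55. Anxa3, an annexin, had 11.003, against 8.75 to 9.84, and Pygl, a glycogen phosphorylase, had 7.84, against 5.94 to 6.69. These genes were named after their values were seen, and 1 array gives no replicate of them.

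Counted over all tested probes, impaired replicate 9 lay far above the other impaired arrays (Dixon's test at 95%) on 252 probes and far below them on 415. The other impaired arrays did so on 3 to 52 and on 3 to 35 probes. Intact replicate 7 lay far above the other intact arrays on 118 probes and far below on 274, and intact replicate 2 on 54 and 51.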
